A study of Mus musculus with 8 samples.

Results

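Basal cells of the mouse mammary gland sorted as negative for both markers, labelled Lgr5-T8-, made up 2 of the 8 RNA sequencing libraries. They were chosen by the sample titles and compared with the other 6 libraries, 2 each of Lgr5+T8hi, Lgr5-T8hi and Lgr5+T8- cells. All 4 populations came from untreated 10-week-old female C57BL/6 mice with 1 shared allele, Lgr5-GFP-IRES-CreERT2, by which green fluorescent protein is made from the Lgr5 locus. That allele is shared by the Lgr5-T8- cells, so the Lgr5 label is taken here to describe the fluorescent protein and not the Lgr5 transcript. The other gate was for surface Tspan8, here abbreviated T8. The 2 libraries of a population carry the labels batch 1 and batch 2, equal to their replicate numbers. Separate mice are not stated in the labels, and p-values therefore cover only the spread between these libraries, which may be technical.

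Basal cells form the outer layer of the mammary ducts and alveoli. They are epithelial cells that hold keratins together with smooth-muscle proteins, contract in response to oxytocin to expel milk, and lay down most of the basement membrane on which the gland rests. Lgr5 is a receptor for R-spondins, which strengthen Wnt signalling, and marks stem cells in several epithelia, while Tspan8 is a tetraspanin of the cell surface. The Lgr5-T8- cells are the basal cells sorted as negative by both gates. Because the labels read T8hi and T8-, basal cells with intermediate Tspan8 may be in no library.

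Total gene counts ran from 24571300 to 38384875 per library and were 34490324 and 25904146 in the Lgr5-T8- libraries. Levels are given as CPM, counts scaled to library size and composition. Differences are log2 fold changes ± standard error from edgeR's quasi-likelihood test with batch in the model. The adjusted p is the Benjamini-Hochberg value over 16526 genes tested, and genes are called at a value under 0.05. No replicates were duplicates of each other, and replicates of a population correlated at 0.980 to 0.988 across genes (genes are not independent of each other).

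The levels of the 2 sort genes describe the gates and are given without a test. Tspan8 stood at 4.37 and 3.16 CPM in the Lgr5-T8- libraries, against 10.6 and 6.82 in Lgr5+T8-, 167 and 150.2 in Lgr5-T8hi, and 289 and 261 in Lgr5+T8hi. Lgr5 stood at 58.4 and 50.5 CPM in the Lgr5-T8- libraries and at 119 to 212 CPM in the other 6. Within that range both Lgr5-T8hi libraries lay below the Lgr5+ libraries but above Lgr5-T8-. Both transcripts were thus lowest in both Lgr5-T8- libraries, and Lgr5 messenger RNA was still measured in the cells sorted as Lgr5-. The labelled cell type was checked against its markers. The basal keratin genes Krt14 and Krt5 stood at 4128 ± 594 and 2154 ± 68.6 CPM (SD, n = 2) in Lgr5-T8- cells. The smooth-muscle actin gene Acta2 stood at 6729 ± 44.4 CPM in the same cells.

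Compared with the mean of the other 3 populations, 1232 genes (7.45% of those tested) were higher in Lgr5-T8- cells and 1159 (7.01%) were lower. All 2391 had the same sign within batch 1 and within batch 2, which their selection from these same libraries favours. More than 2-fold differences were found in 343 higher and 257 lower genes, and the median over all genes tested was -0.002. Leaving out Lgr5-T8- replicate 1 reduced the counts to 731 higher and 672 lower. In the same fit, Lgr5-T8- differed from Lgr5+T8hi by 1450 higher (8.77%) and 1837 lower genes (11.1%). It differed from Lgr5-T8hi by 556 higher (3.36%) and 611 lower (3.70%), and from Lgr5+T8- by 834 higher (5.05%) and 630 lower (3.81%). These 3 comparisons share the 2 Lgr5-T8- libraries and are given side by side only. The totals without a library moved by over 1.5 times in some cases. Against Lgr5+T8hi, 1554 genes were called without Lgr5+T8hi replicate 1 and 1681 without replicate 2. Against Lgr5-T8hi, leaving out its own replicates 1 and 2 in turn gave 489 and 599, and leaving out Lgr5-T8- replicate 2 gave 1943. Against Lgr5+T8-, leaving out its own replicates in turn gave 750 and 962, and leaving out Lgr5-T8- replicate 2 gave 2354.

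What set Lgr5-T8- cells apart was tested gene by gene, by requiring a difference in the same direction from each of the other 3 populations and adjusting the largest of the 3 p-values. By this rule 243 genes (1.47%) were higher in Lgr5-T8- than in each other population and 204 (1.23%) were lower. Of these, 146 and 99 differed more than 2-fold from the mean of the other 3. In 409 of the 447 genes both Lgr5-T8- libraries lay outside the range of the other 6, which the choice of these genes favours. Over all 16526 genes tested, both libraries lay above the other 6 in 1172 and below them in 1135. The same rule gave 151 higher (0.914%) and 33 lower genes (0.200%) for Lgr5+T8hi, and 3 higher (0.0182%) and 44 lower (0.266%) for Lgr5+T8-. For Lgr5-T8hi it gave 5 higher (0.0303%) and 0 lower (0.00%) by edgeR, with 0 lower in DESeq2 or limma-voom fits and 17 at an unadjusted p under 0.05. At an adjusted p under 0.05 Lgr5-T8- thus held the most genes in either direction among the 4 populations by edgeR, DESeq2 and limma-voom, although the counts themselves were not tested against each other. At an unadjusted p under 0.05 Lgr5+T8hi held more higher genes than Lgr5-T8- by edgeR (852 against 820) and limma-voom (889 against 838), but not by DESeq2 (629 against 682). Without Lgr5-T8- replicate 2 the Lgr5-T8- counts were 459 higher and 356 lower. Leaving out Lgr5-T8hi replicate 1 gave 119 and 101, its replicate 2 gave 120 and 111, and Lgr5+T8- replicate 1 gave 145 and 118. Leaving out Lgr5+T8hi replicate 1 gave 150 higher genes.

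**Figure D1:**
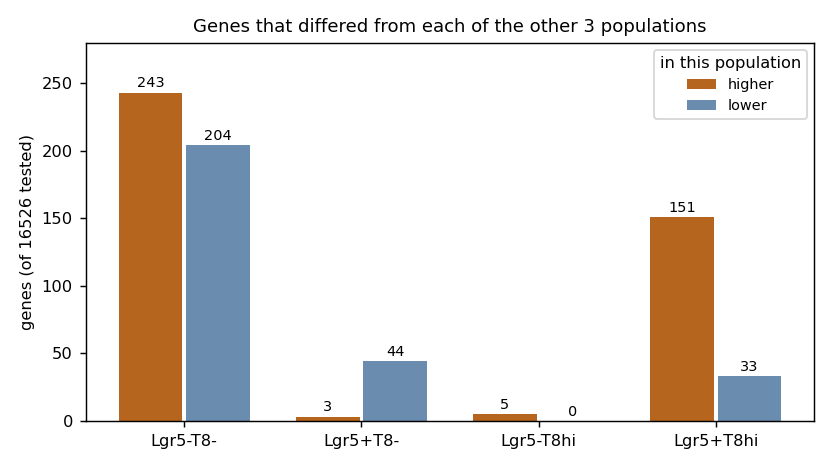
Number of genes, of 16526 tested, that were higher or lower in 1 population than in each of the other 3 (adjusted p under 0.05). Bars are counts from 1 fit of all 8 libraries, with 243 higher and 204 lower in Lgr5-T8- and at most 151 and 44 in any other population.

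The largest difference among set-apart genes averaging 5 CPM or more was that of Serpinb2, which encodes plasminogen activator inhibitor 2, an intracellular and secreted protease inhibitor (Entrez 18788, chromosome 1, 107500892 to 107525600, GRCm38.p6). It stood at 46.5 and 30.5 CPM in the Lgr5-T8- libraries. It was at 0.317 and 0.643 CPM in Lgr5+T8hi, at 2.25 and 0.772 in Lgr5-T8hi, and at 0.220 and 0.359 in Lgr5+T8-. The lowest Lgr5-T8- library was therefore above the highest of the other 6, and the log2 difference was 6.06 ± 0.26 (edgeR adjusted p = 7.75e-06). Its difference from each of the other 3 populations was called under all 14 alternatives to the fit.

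Regulators of transcription were among the genes that marked Lgr5-T8- cells. Zfhx4, a large zinc finger and homeobox protein (Entrez 80892, chromosome 3, 5218218 to 5415861), reached 46.2 and 36.3 CPM in Lgr5-T8- and at 3.72 to 7.22 CPM in the other 6 libraries. Its difference was 3.04 ± 0.11 (edgeR adjusted p = 3.25e-08). Eya1, a transcriptional cofactor and phosphatase of organ development, stood at 12.8 and 14.6 CPM against 0.750 and 0.946 in Lgr5+T8hi, 1.57 and 2.64 in Lgr5-T8hi, and 3.28 and 3.95 in Lgr5+T8- (2.89 ± 0.14, edgeR adjusted p = 1.53e-07). Tbx2, a T-box repressor, was at 34.4 and 33.3 CPM against 5.64 to 10.3 in the other 6 (2.08 ± 0.09). None of these 3 genes had an overlap between the Lgr5-T8- libraries and the rest. Of the list of developmental transcription factors, 9 of 39 tested were higher and 7 lower. Each list count here and below stands beside 7.45% higher and 7.01% lower over all genes tested. The median of this list was 0.04, and leaving out replicate 2 made it -0.14 for Lgr5-T8- and -0.01 for Lgr5+T8-. The 48 listed genes include 9 that the filter on low counts left out. The list holds 3 Gli genes, the transcription factors of Hedgehog signalling, of which Gli1 and Gli2 fell and Gli3 rose. Gli1 stood at 2.00 and 1.84 CPM in Lgr5-T8- and at 3.83 to 17.7 in the other 6 (-2.33 ± 0.26, edgeR adjusted p = 0.000356). Gli2 stood at 1.03 and 1.10 CPM against 2.56 to 10.9 (-2.15 ± 0.24). Gli3 was at 0.35 ± 0.08 (edgeR adjusted p = 0.0137), a call lost without Lgr5-T8- replicate 1 (adjusted p = 0.163). The call of Gli1 against each population was lost without either Lgr5-T8- library or without Lgr5+T8- replicate 1, and that of Gli2 without replicate 1 of Lgr5-T8-, Lgr5-T8hi or Lgr5+T8-.

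Ion channels and calcium handling were followed by lists of their own. Trpm3, a calcium-permeable cation channel (Entrez 226025, chromosome 19, 22137797 to 22995410), measured 49.96 and 48.2 CPM in Lgr5-T8- and at 1.82 to 15.1 in the other 6, with no overlap (3.06 ± 0.26, edgeR adjusted p = 0.00104). The call of Trpm3 against each population lay near the threshold (edgeR adjusted p = 0.0492) and was lost without any 1 of the 4 T8hi libraries. That call was also lost without the filter on low counts and without batch in the model. Kcnma1 and Kcnmb1 encode the pore and the smooth-muscle subunit of the large-conductance calcium-activated potassium channel. Kcnma1 stood at 12.2 and 9.78 CPM against 2.00 to 4.38 in the other 6 (1.87 ± 0.13), and Kcnmb1 at 57.4 and 64.4 CPM against 13.2 to 42.1 (1.46 ± 0.07, edgeR adjusted p = 1.53e-07). Both subunits were therefore higher in Lgr5-T8- than in each other population. Of 32 potassium channel genes tested, 8 were higher and 2 lower (7.45% and 7.01% over all genes), with a median of 0.15. Leaving out replicate 1 changed the potassium channel median to 0.00 for Lgr5+T8hi and 0.02 for Lgr5+T8-. Their median was -0.43 against Lgr5+T8hi, -0.20 against Lgr5-T8hi and 0.74 against Lgr5+T8-. The lower members, Kcnd3 and Kcns3 (-1.12 ± 0.26), stood at 0.0735 to 1.06 and 0.625 to 2.13 CPM over the 8 libraries. Kcnh1 (0.82 ± 0.08) and Kcnk2 (1.33 ± 0.17) were also called against each population, but that call of Kcnk2 was lost in 7 of the 8 fits with a library left out, all except the one without Lgr5-T8- replicate 1. Of 38 genes for calcium release, entry and pumps, 9 were higher and 2 lower, with a median of 0.20, which fell to 0.07 without Lgr5-T8- replicate 1. Slc8a1, the sodium-calcium exchanger, rose by 0.93 ± 0.09 and Cacna1d, an L-type calcium channel, by 0.79 ± 0.09. The lower members were Trpc1 (-0.70 ± 0.13) and Trpv4 (-0.30 ± 0.07), and only 1 lower member was called without Lgr5-T8- replicate 1 or without the replicate 2 of either T8hi population.

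**Figure D2:**
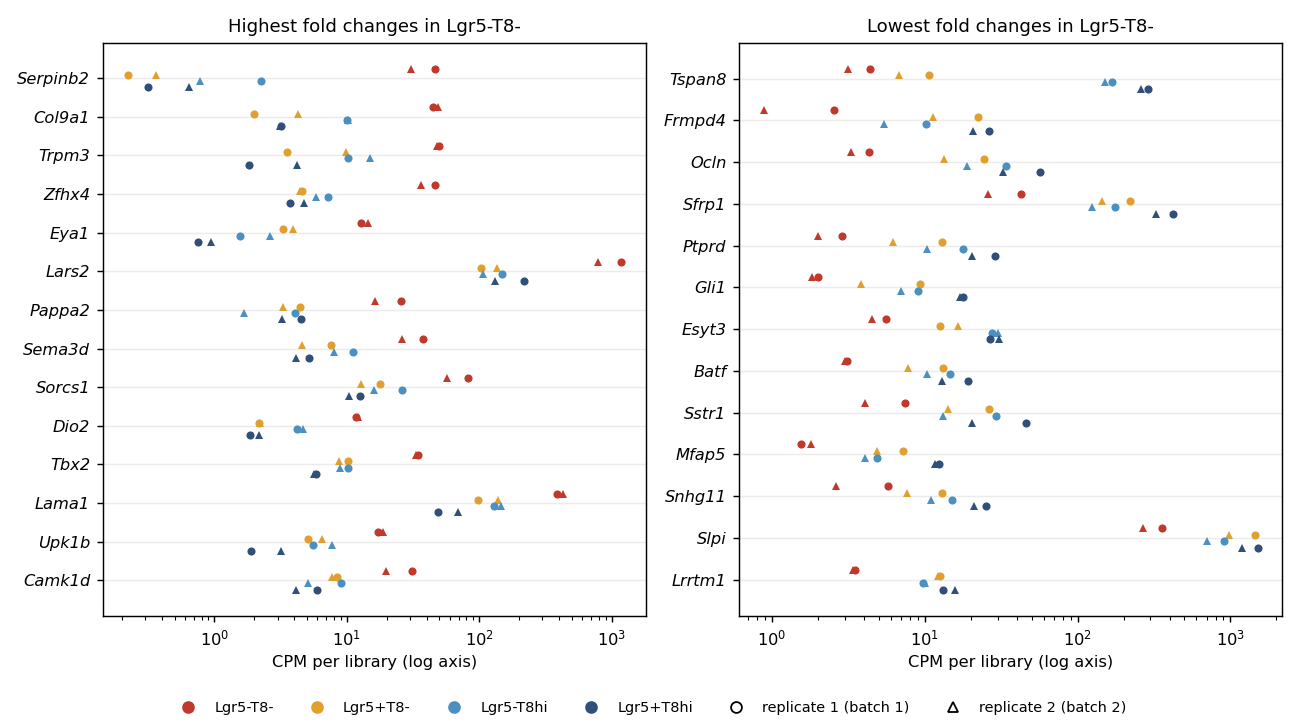
CPM in each library (log axis) for 14 genes with the highest and 13 of the 14 with the lowest log2 fold change in Lgr5-T8- cells among set-apart genes averaging 5 CPM or more. Circles are replicate 1 and triangles replicate 2. Both red Lgr5-T8- points lie beyond the other 6 libraries for each gene, which the choice of these genes favours, and Tspan8 is a sort gene.

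The remaining genes at the top of the ranking were spread over several functions. Col9a1, a chain of type IX collagen, stood at 45.0 and 49.1 CPM in Lgr5-T8- and at 1.98 to 10.2 in the other 6 (3.35 ± 0.15). Pappa2, a protease that frees insulin-like growth factors from their binding proteins, stood at 25.6 and 16.2 CPM against 1.68 to 4.499 (2.58 ± 0.14). Sema3d, a secreted semaphorin, stood at 37.5 and 26.2 CPM against 4.16 to 11.1 (2.30 ± 0.10). Sorcs1, a sorting receptor, rose by 2.18 ± 0.08, Dio2, which activates thyroid hormone, by 2.15 ± 0.13, Upk1b, a tetraspanin of the urothelium, by 1.99 ± 0.12 and Camk1d, a calmodulin-dependent kinase, by 1.94 ± 0.12. Lars2, the mitochondrial leucyl-tRNA synthetase, was the most abundant of the 14. It stood at 1188 and 796 CPM in Lgr5-T8- and at 103 to 216 CPM in the other 6 libraries (2.82 ± 0.19, edgeR adjusted p = 0.000178). Without Lgr5-T8- replicate 1 its adjusted p was 0.0847, and its call against each population was lost without either Lgr5-T8- library. Entrez identifier 100628626, which has no symbol in the tables used here, showed a like pattern, with 1068 and 693 CPM against 46.7 to 122. Identifier 100628579, also without a symbol, stood at 31.4 and 21.1 CPM against 2.10 to 6.63. Both identifiers were singled out after their values had been seen. Whether their reads and those of Lars2 share a source was not tested.

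Smooth-muscle contractile genes were higher in Lgr5-T8- cells, and the size of the difference depended on the population they were compared with. Of 28 members, all tested, 17 were higher and 0 lower by edgeR, with a median of 0.40 against -0.002 over all genes. At an unadjusted p under 0.05 there were 21 higher and 1 lower, and DESeq2 gave 19 and 0 and limma-voom 18 and 0. The members' median was 0.55 against Lgr5+T8hi and 0.53 against Lgr5-T8hi, but 0.14 against Lgr5+T8-. It was 0.31 within batch 1 and 0.44 within batch 2.

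Actg2, the enteric smooth-muscle actin, had the smallest adjusted p of the list. It stood at 363 and 435 CPM in Lgr5-T8-, 254 and 338 in Lgr5+T8-, 137 and 204 in Lgr5-T8hi, and 103 and 126 in Lgr5+T8hi (1.16 ± 0.08, edgeR adjusted p = 1.68e-06). Both Lgr5-T8- libraries were above the other 6, with the Lgr5+T8- libraries next. Myh11, the smooth-muscle myosin heavy chain, stood at 4622 and 3653 CPM against 3379 and 2573 in Lgr5+T8- and 1719 to 2341 in the T8hi libraries (0.87 ± 0.08). Acta2 stood at 6697 and 6760 CPM against 5677 and 5214 in Lgr5+T8- and 3330 to 4099 in the T8hi libraries (0.65 ± 0.08, edgeR adjusted p = 0.000158). In these 3 genes the order from Lgr5-T8- to Lgr5+T8- to the T8hi populations was the same in each batch. The difference from each population was called for 5 members, among them Actg2, Synm, Myh11 and Mylk, the last of which lies outside the rule for named genes. Synm, an intermediate filament protein, was at 1.11 ± 0.09 and Mylk, the myosin light chain kinase, at 0.64 ± 0.08. Against Lgr5+T8- alone the differences were 0.44 for Actg2, 0.66 for Synm, 0.48 for Myh11 and 0.43 for Mylk. Among the 8 fits with a library left out, the call of Actg2 against each population was kept only without Lgr5-T8- replicate 2. That of Mylk was kept only without a Lgr5-T8- library. That of Synm was lost without Lgr5+T8- replicate 2. That of Myh11 was lost without either Lgr5-T8hi library, either Lgr5+T8- library or Lgr5+T8hi replicate 2. Cnn1, Tagln and Tpm2, a calponin, transgelin and a tropomyosin, were higher against the mean of the other 3 (0.37 to 0.49), but against Lgr5+T8- they were at 0.03, 0.11 and 0.02. In bulk libraries a higher level per cell and a larger share of cells that hold the transcript cannot be told apart, here and for every gene below.

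Many contractile genes are activated by serum response factor, Srf, with its cofactor myocardin, Myocd, through a short sequence known as the CArG box. Srf itself stood at 175 and 230 CPM in Lgr5-T8- and at 143 to 173 in the other 6 (0.32 ± 0.08, edgeR adjusted p = 0.0180). Its call was lost without Lgr5-T8- replicate 2 (adjusted p = 0.169) and without any 1 of the 4 T8hi libraries. Myocd stood at 4.52 and 3.27 CPM, against 3.79 and 1.76 in Lgr5-T8hi, 2.57 and 1.55 in Lgr5+T8hi, and 1.10 and 0.638 in Lgr5+T8- (1.22 ± 0.19). RefSeq promoters (GRCm38.p6), which span 300 bases around the first listed start of a gene, were matched for 23 of the 28 members. A CArG box was searched for on both strands and found in 3 of them (13.0%). It was found in 425 of all 27025 promoters (1.57%) and in 165 of the 12194 promoters of genes tested (1.35%). The list was made of contractile genes, many of them activated through this box, and holds Srf itself. Its choice thus favours a larger share, and a link between the box and the differences in Lgr5-T8- cells was not tested. The 3 genes, all of them higher in Lgr5-T8- cells, are shown 5′ to 3′ on the strand of the gene, with 80 bases before the first box, 30 after the last, and the box in capitals, because they are the members whose promoter window holds the box. The other 20 matched promoters hold none, and the call of Myl9 was lost without Lgr5-T8- replicate 2 (adjusted p = 0.0649). The 3 are Cnn2, a calponin (chr10:79988464-79988583, plus strand), Myl9, the regulatory myosin light chain (chr2:156775223-156775342, plus strand), and Srf (chr17:46556185-46556324, minus strand).
Cnn2: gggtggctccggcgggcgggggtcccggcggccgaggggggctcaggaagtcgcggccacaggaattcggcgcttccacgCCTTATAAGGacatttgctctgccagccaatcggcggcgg
Myl9: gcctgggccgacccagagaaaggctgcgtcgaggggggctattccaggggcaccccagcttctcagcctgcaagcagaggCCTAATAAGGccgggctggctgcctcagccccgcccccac
Srf: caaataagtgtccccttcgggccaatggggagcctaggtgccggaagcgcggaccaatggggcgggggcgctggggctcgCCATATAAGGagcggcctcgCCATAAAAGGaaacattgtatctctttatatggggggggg
The box begins 56 bases before the listed start in Cnn2, 161 in Myl9 and 82 in Srf, and the Srf promoter holds 2 boxes. Cnn2 stood at 190 and 257 CPM in Lgr5-T8- and at 122 to 213 in the other 6 (0.47 ± 0.08, edgeR adjusted p = 0.00117), and Myl9 at 791 and 808 CPM against 497 to 821 (0.41 ± 0.09). The call of Myl9 was lost without Lgr5-T8- replicate 2 (adjusted p = 0.0649). For both the Lgr5-T8- libraries overlapped with the rest. A match is a description of the letters in these windows, not a site of binding.

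Basement membrane genes were also higher in Lgr5-T8- cells, and here the difference was seen against each population. Of 34 members, all tested, 15 were higher and 3 lower, with a median of 0.25, and 5 were lower without Lgr5-T8- replicate 1. The median was 0.33 against Lgr5+T8hi, 0.18 against Lgr5-T8hi and 0.43 against Lgr5+T8-, and without Lgr5-T8- replicate 1 the median against the mean of the 3 was 0.16. Against each population 9 members were higher and 2 lower. Lama1, the alpha-1 chain of laminin (Entrez 16772, chromosome 17, 67697127 to 67822645), measured 390.4 and 431 CPM in Lgr5-T8-, against 97.3 and 139.6 in Lgr5+T8-, 130 and 146 in Lgr5-T8hi, and 49.0 and 68.7 in Lgr5+T8hi (2.07 ± 0.08, edgeR adjusted p = 4.61e-08). Col4a1 and Col4a2, the neighbouring genes of the main type IV collagen chains, moved together. Col4a1 stood at 2798 and 2675 CPM against 956 to 1350.3 in the other 6 (1.26 ± 0.08), and Col4a2 at 1838 and 1780.1 CPM against 726 to 994 (1.09 ± 0.08). In all 3 genes the Lgr5-T8- libraries lay above the rest without overlap. Col4a3 and Col4a4, the pair of chains of the kidney and lung type, were low but also higher (1.64 ± 0.20 and 1.28 ± 0.21). Frem2, which anchors epithelia to the matrix, stood at 133 and 102 CPM against 22.3 to 49.1, and was higher against each population by 1.33 to 2.29 on the log2 scale. Of the other laminin chains, Lamc1 rose by 0.65 ± 0.08, and Lamc3 rose to 14.5 and 15.5 CPM against 2.93 to 9.70. The calls of Lamc1 and Lamc3 against each population were lost without either Lgr5-T8hi library, that of Lamc1 also without Lgr5+T8- replicate 1 and that of Lamc3 also without Lgr5-T8- replicate 2. The call of Col4a4 was lost without any 1 of the 8 libraries and that of Col4a3 in 5 of those 8 fits. The 3 lower members were Ntn4, a netrin that binds laminin (-1.28 ± 0.09), Nid2, a nidogen that links laminin to collagen (-1.29 ± 0.11), and Fbln1, a fibulin (-0.55 ± 0.09). The other nidogen, Nid1, went up by 0.56 ± 0.09.

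**Figure D3:**
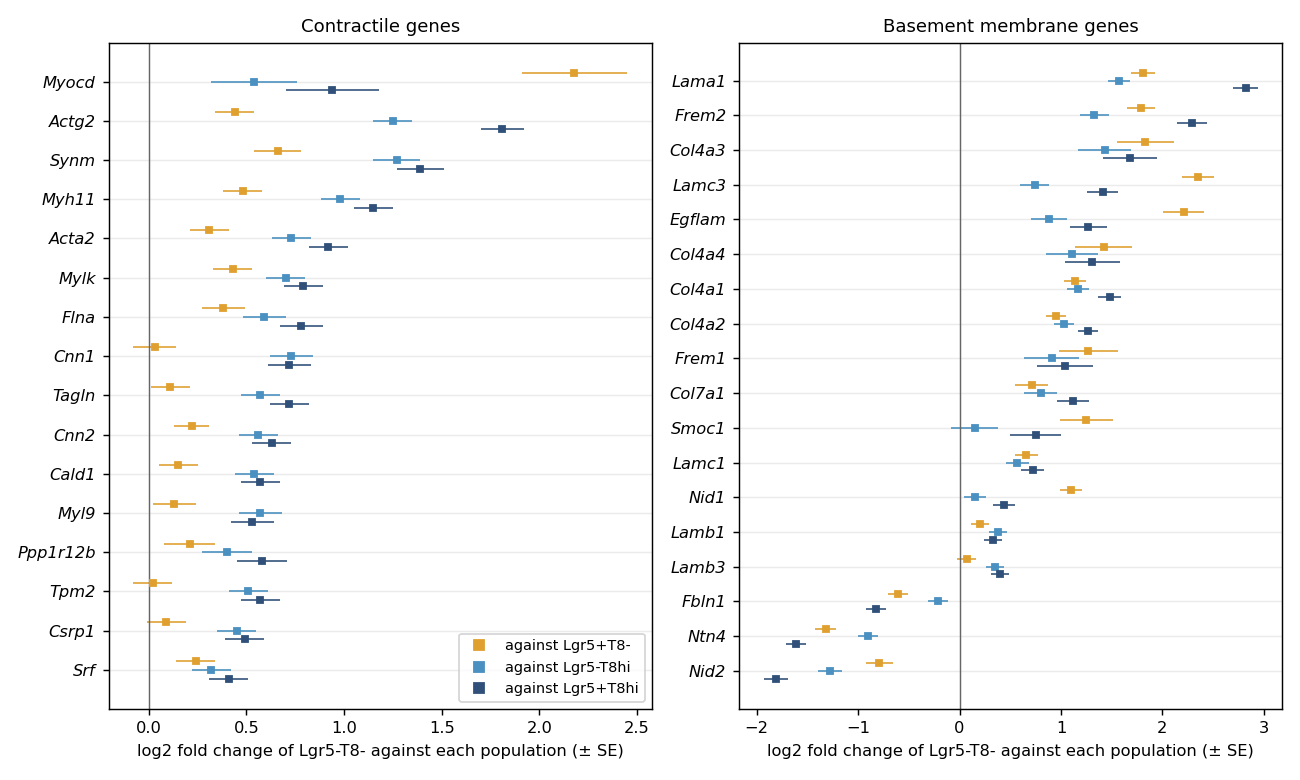
Log2 fold change ± SE of Lgr5-T8- against each of the other 3 populations, for 16 of the 17 contractile and all 18 basement membrane genes called against their mean. The contractile genes shown lie closest to 0 against Lgr5+T8- in all but Myocd, whereas Col4a1 and Col4a2 lie between 0.95 and 1.48 against all 3 populations.

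Genes of the interstitial matrix, the looser matrix made largely by fibroblasts, were lower more often than higher. Of 45 members tested, 20 were lower and 7 higher, with a median of -0.43 that was -0.48 within batch 1 and -0.29 within batch 2, and 11 were higher without Lgr5-T8- replicate 2. The median was -0.62 against Lgr5+T8hi and -0.35 against Lgr5-T8hi, but -0.03 against Lgr5+T8-. Col6a1 and Col6a2, neighbouring genes of type VI collagen, stood apart without overlap. Col6a1 stood at 103 and 89.5 CPM in Lgr5-T8- and at 237 to 468 in the other 6 (-1.71 ± 0.09), and Col6a2 at 50.5 and 47.6 CPM against 122 to 246 (-1.74 ± 0.08, edgeR adjusted p = 1.53e-07). Both were called against each population under all 14 alternatives. Adamts1, a protease that cleaves versican, stood at 1429 and 1236 CPM against 2453 to 4699 (-1.29 ± 0.09), and Fn1, fibronectin, fell by 1.21 ± 0.13, a call lost without Lgr5-T8- replicate 1 (adjusted p = 0.0546). The list went both ways, since the fibrillar collagen gene Col11a1 stood at 119 and 120.4 CPM against 21.0 to 54.0 (1.92 ± 0.13).

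Among fibroblast markers 12 of 16 were lower, 7 without Lgr5-T8- replicate 1, and 1 was higher, with a median of -0.87. Their summed level was 1208 to 1373 CPM in the Lgr5-T8- libraries and 1298 to 2501 in the other 6. The defining marker Dpt fell (-1.42 ± 0.14), Pdgfra was at -0.21 ± 0.11, and Dcn, the proteoglycan decorin, was the member that rose (1.03 ± 0.12). Col1a2 stood at 63.2 and 70.8 CPM in Lgr5-T8-, at 65.9 and 64.5 in Lgr5+T8-, and at 132 to 278 in the T8hi libraries. The part of fibroblast transcripts in the lower matrix genes was not tested. Against Lgr5+T8- the fibroblast list had a median of 0.02, while Col6a1 was at -1.46 and Col6a2 at -1.39 in that comparison.

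Markers of luminal cells, the inner layer that makes milk, were lower as well. Of 19 pan-luminal members 12 were lower and 1 higher, with a median of -0.63. Without Lgr5-T8- replicate 1 there were 6 lower and the 1 higher member, Lcn2, was not called without the replicate 2 of Lgr5-T8-, Lgr5-T8hi or Lgr5+T8hi. Ocln, the tight junction protein occludin (Entrez 18260, chromosome 13, 100496504 to 100552718), measured 4.34 and 3.31 CPM in Lgr5-T8-, 24.3 and 13.4 in Lgr5+T8-, 34.2 and 18.8 in Lgr5-T8hi, and 57.1 and 32.7 in Lgr5+T8hi (-2.86 ± 0.12, edgeR adjusted p = 5.86e-08). Muc1, a mucin of the luminal surface, fell by 1.12 ± 0.10 and Spint1, a protease inhibitor of epithelia, by 1.00 ± 0.09. These 3 genes and the keratin gene Krt18 were lower than in each other population. Krt18 stood at 210.0 and 154 CPM against 206 to 458 (-0.90 ± 0.12), with an overlap between libraries of different batches. The calls of Muc1, Spint1 and Krt18 against each population were lost without Lgr5+T8- replicate 1, and that of Krt18 also without Lgr5-T8- replicate 1 or Lgr5+T8hi replicate 1. Epcam fell by 0.38 ± 0.08.

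Each of the other luminal lists held 1 gene that was lower in Lgr5-T8- than in each population, the cytokine gene Lif (-0.94 ± 0.11) and the T-box gene Tbx3 (-0.73 ± 0.09). That call of Lif was lost in 5 of the 8 fits with a library left out, those without replicate 1 of either T8hi population or replicate 2 of Lgr5-T8-, Lgr5+T8- or Lgr5+T8hi, and that of Tbx3 without Lgr5+T8- replicate 1. Of 18 luminal progenitor and milk genes tested, 8 were lower and 2 higher, with a median of -0.68, but the median was -1.14 and -1.32 against the T8hi populations and 0.49 against Lgr5+T8-. The higher members were Mfge8 and Lcn2, and without replicate 2 of Lgr5-T8hi or of Lgr5+T8hi 1 was called. Of 22 listed genes the filter left out 4 casein and whey genes. Of 17 hormone-sensing genes 7 were lower and 0 higher by edgeR (median -0.60, and -0.30 without Lgr5-T8- replicate 2), with 6 and 0 in DESeq2, 7 and 0 in limma-voom, and 10 and 1 before adjustment at p under 0.05. There were 4 lower without replicate 2 of Lgr5-T8-, Lgr5-T8hi or Lgr5+T8hi, and 1 higher without Lgr5+T8- replicate 1. Their median was -0.94 against Lgr5+T8hi, -0.55 against Lgr5-T8hi and 0.01 against Lgr5+T8-. Esr1 and Pgr, the oestrogen and progesterone receptors, were at -0.03 ± 0.12 and -0.02 ± 0.09. The summed pan-luminal level was 2909.6 to 3554 CPM in the Lgr5-T8- libraries and 2969 to 4622 in the other 6. The part of luminal cells in these differences was not tested.

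**Figure D4:**
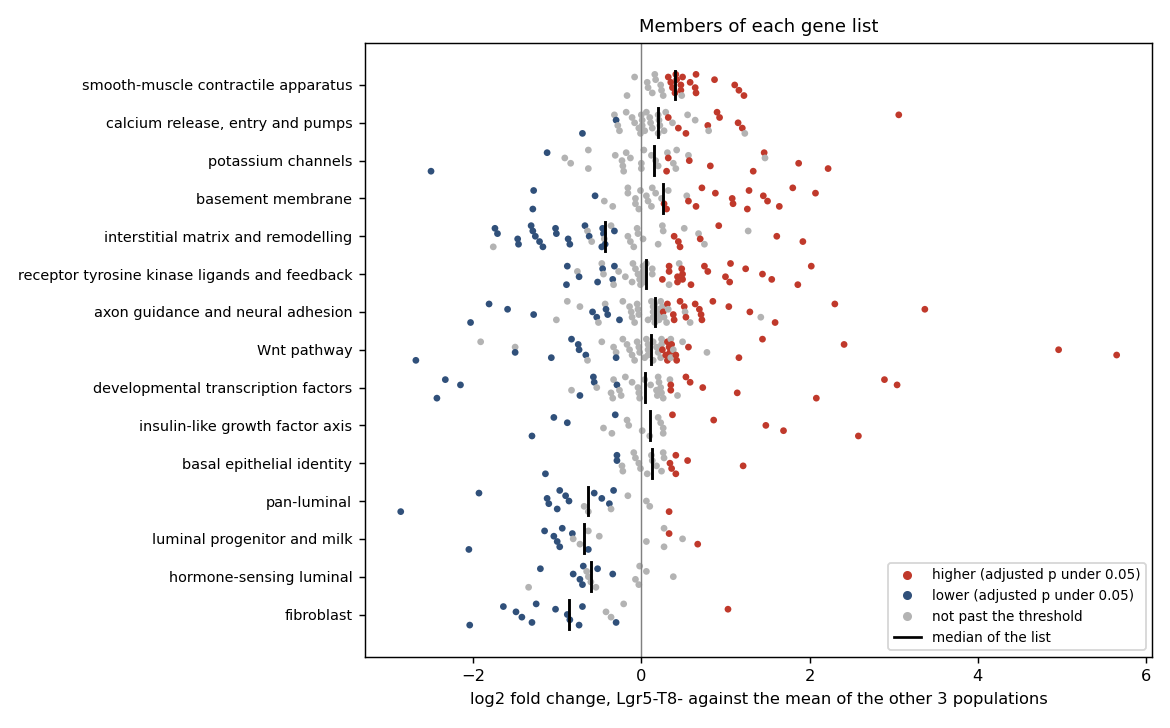
Log2 fold change of Lgr5-T8- against the mean of the other 3 populations for every tested member of 15 gene lists. Red and blue points passed an adjusted p of 0.05, grey points did not, and the black bar is the median of the list, which runs from -0.87 for fibroblast markers to 0.40 for contractile genes.

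Signals and their feedback went in both directions. Of 47 receptor tyrosine kinase ligands, receptors and feedback genes, 19 were higher and 7 lower, against 7.45% and 7.01% over all genes tested. The median of the 47 was 0.06. The median lay between 0.03 and 0.15 with a library left out. The ligand genes Epgn, epigen, at 13.0 and 13.0 CPM against 3.06 to 5.94 (1.44 ± 0.14), and Ereg, epiregulin, at 55.3 and 40.5 CPM against 12.6 to 28.8 (1.24 ± 0.13), rose. So did Nrg1, a ligand of ErbB receptors that basal cells supply, at 59.1 and 26.9 CPM against 23.6 to 26.4 in batch 1 and 11.3 to 12.4 in batch 2 (1.21 ± 0.08, edgeR adjusted p = 1.00e-06). Both Lgr5-T8- libraries were above the other 6, the second by a small margin, and within each batch the gap was wide. Nrg1 is counted on the basal list, not on this one. Hbegf, another ligand of the family, was lower (-0.52 ± 0.08). The target and feedback genes Etv5 (1.06 ± 0.09), Dusp4 (1.00 ± 0.10) and Spry4 (0.49 ± 0.08) rose. Of the fibroblast growth factor receptors, Fgfr4 averaged 8.27 ± 1.09 CPM (SD, n = 2) in Lgr5-T8- against 1.59 to 4.72 (1.55 ± 0.15) and Fgfr3 at 61.3 and 56.1 CPM against 84.5 to 130 (-0.89 ± 0.09). The call of Fgfr4 and of Epgn against each population was lost without Lgr5-T8hi replicate 1, and that of Fgfr4, Fgfr3 and Dusp4 without Lgr5-T8hi replicate 2. That of Spry4 was lost without any 1 of the 8 libraries. That of Ereg was lost without any 1 of the 4 T8hi libraries or Lgr5+T8- replicate 1, and that of Hbegf without any 1 of the Lgr5-T8hi and Lgr5+T8- libraries. That of Dusp4 was also lost without Lgr5-T8- replicate 1.

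Of 54 Wnt pathway genes tested, 15 were higher and 8 lower (7.45% and 7.01% over all genes), with a median of 0.11. Without Lgr5-T8- replicate 1 there were 8 higher and the median was 0.07, and without Lgr5-T8hi replicate 1 there were 5 lower. Sfrp1, a secreted Wnt inhibitor (Entrez 20377, chromosome 8, 23411383 to 23449632), measured 42.5 and 25.9 CPM in Lgr5-T8- and at 125 to 419 CPM in the other 6, highest in Lgr5+T8hi (-2.68 ± 0.10, edgeR adjusted p = 3.24e-08). Sfrp2, its relative, was lower too, at 11.8 and 14.3 CPM against 25.1 to 61.7, as was the ligand Wnt11 (-0.83 ± 0.09). Ror2, a Wnt5a receptor, rose by 2.41 ± 0.19 and the ligand Wnt6 by 1.44 ± 0.13. The target gene Axin2 rose by 0.36 ± 0.09, with 31.8 CPM on average in Lgr5-T8- against 22.8 to 26.7 in the other populations. It was not called against each of them, and its call against their mean was lost without Lgr5+T8hi replicate 1 or the replicate 2 of Lgr5-T8- or Lgr5-T8hi. The ligand gene Wnt3 stood at 0.515 and 1.54 CPM in Lgr5-T8-, at 0.0288 and 0 in Lgr5+T8hi, at 0.110 and 0.0533 in Lgr5-T8hi, and at 0 in both Lgr5+T8- libraries. The level that 3 counts give was 0.0782 to 0.122 CPM per library, so 5 of the other 6 values lay below it. The call of Wnt3 against each population was lost in 5 of the 8 fits with a library left out and by DESeq2.

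Axon guidance and neural adhesion genes are used by epithelia to position cells. Of 57 tested, 17 were higher and 9 lower (7.45% and 7.01% over all genes), with a median of 0.16. There were 11 higher without Lgr5-T8- replicate 1 or Lgr5+T8hi replicate 1, and the median was 0.01 without the former. Sema3d, given above, Slit2, a repellent ligand (1.29 ± 0.09), and Epha4, an ephrin receptor (0.69 ± 0.07), rose. Sema3a, another secreted semaphorin, was at 2.82 and 2.98 CPM against 0.0945 to 0.506 (3.37 ± 0.29). Ntn1, a netrin (-1.59 ± 0.12), and Lrrtm1, a synaptic adhesion protein (-1.81 ± 0.13), fell. Lrrtm1 stood at 3.49 and 3.38 CPM against 9.78 to 15.7, without overlap.

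Of 19 insulin-like growth factor genes, 5 were higher, 3 without Lgr5-T8hi replicate 2, and 4 lower, with a median of 0.10 that was 0.18 within batch 1 and -0.13 within batch 2. Without Lgr5-T8- replicate 1 it was -0.14, and without Lgr5-T8- replicate 2 it was 0.17. Besides Pappa2, the binding protein gene Igfbp2 rose, at 165 and 183 CPM against 35.2 to 88.0 (1.69 ± 0.09), as did Igfbp4 (0.86 ± 0.07). Igfbp6 fell by 1.30 ± 0.12.

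Basal identity genes as a list were close to the other populations in their median, 0.13. Of 22 members 6 were higher and 3 lower, against 7.45% and 7.01% over all genes tested. Trp63, the regulator of the basal lineage, rose by 0.41 ± 0.08 and Itga6, an integrin used to sort basal cells, by 0.55 ± 0.09. Krt5 was at -0.22 ± 0.08 (edgeR adjusted p = 0.0867), Krt14 at -0.23 ± 0.08 and Oxtr, the oxytocin receptor, at -0.17 ± 0.08, and none of them was called. Bcl11a, a transcriptional regulator, was lower at -1.14 ± 0.17. In 6 of the fits with a library left out, all except those without a Lgr5-T8- library, 1 lower member was called. Of 22 reported mammary stem cell markers 7 were higher and 3 lower, with a median of 0.13. Without Lgr5-T8- replicate 1 there were 4 higher and the median was 0.07. Among them Foxc1 (-1.25 ± 0.12) and Sox9 (-0.57 ± 0.08) fell, and Itgb3, an integrin chain, rose by 0.93 ± 0.09.

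Lower genes at the end of the ranking included secreted and membrane proteins. Slpi, a secreted inhibitor of leukocyte proteases, was the most abundant of them, at 357 and 268 CPM against 709 to 1512 in the other 6 libraries (-1.82 ± 0.09, edgeR adjusted p = 1.86e-07). Ptprd, a receptor tyrosine phosphatase, stood at 2.88 and 1.99 CPM against 6.22 to 28.9 (-2.61 ± 0.15), and Frmpd4, a scaffold protein, at 2.55 and 0.882 CPM against 5.43 to 26.4 (-3.10 ± 0.21). Sstr1, a somatostatin receptor, was at -2.05 ± 0.11, Batf, a leucine zipper factor, at -2.05 ± 0.15, Mfap5, a microfibril protein, at -2.04 ± 0.19 and Esyt3, a membrane tether, at -2.16 ± 0.13. Mfap5 is also on the fibroblast list, and the part of fibroblast transcripts in it was not tested. Snhg11, a non-coding host gene of small nucleolar RNAs, was at -1.82 ± 0.17, and its call against each population was lost without Lgr5+T8- replicate 1.

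Markers of cells outside the epithelium were read beside these results. Of 19 endothelial genes 1 was lower and 0 higher by edgeR (median -0.20), with 3 and 0 in DESeq2, 1 and 0 in limma-voom, and 5 and 1 before adjustment at p under 0.05. Their summed level was 426 to 446 CPM in Lgr5-T8- and ran from 254 in Lgr5+T8- replicate 2 to 1262 in Lgr5+T8hi replicate 1. Leaving out Lgr5-T8hi replicate 1 gave 7 lower, its replicate 2 gave 3 and Lgr5+T8- replicate 2 gave 4, while leaving out Lgr5+T8- replicate 1 gave 2 higher. Of 13 pericyte and vascular smooth muscle genes, which are the markers closest to the contractile list, 4 were higher and 1 lower, with a median of 0.01. Against the single populations the median was -0.43 for Lgr5+T8hi, -0.15 for Lgr5-T8hi and 0.98 for Lgr5+T8-. There were 2 higher without either Lgr5-T8- library and 2 lower without Lgr5+T8- replicate 1. Their summed level was 375 to 470.2 CPM in Lgr5-T8- and 316 to 547 in the other 6. The defining marker Rgs5 was at -0.37 ± 0.18 and Pdgfrb at 0.01 ± 0.09, neither of them called, while Cspg4 was at 0.65 ± 0.14 and lost its call without either Lgr5-T8- library. Skeletal muscle genes gave 0 of 15 called in either direction by edgeR, DESeq2 and limma-voom, and 2 lower at an unadjusted p under 0.05, with 9.34 to 10.9 CPM in sum in Lgr5-T8-. Without Lgr5+T8- replicate 1 there was 1 lower. Of 19 leukocyte genes 3 were lower and 0 higher by edgeR (3 and 0 in DESeq2 and limma-voom fits, 5 and 0 before adjustment at p under 0.05), with a summed level of 68.4 to 114 CPM against 58.9 to 201. The pan-leukocyte marker Ptprc was at -0.81 ± 0.22 and H2-Aa and H2-Ab1, which present antigen, were also lower. Only 1 was called without replicate 1 of Lgr5-T8-, Lgr5-T8hi or Lgr5+T8-, or replicate 2 of Lgr5-T8- or Lgr5+T8hi. The part of other cell types in the differences above was otherwise not tested.

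**Figure D5:**
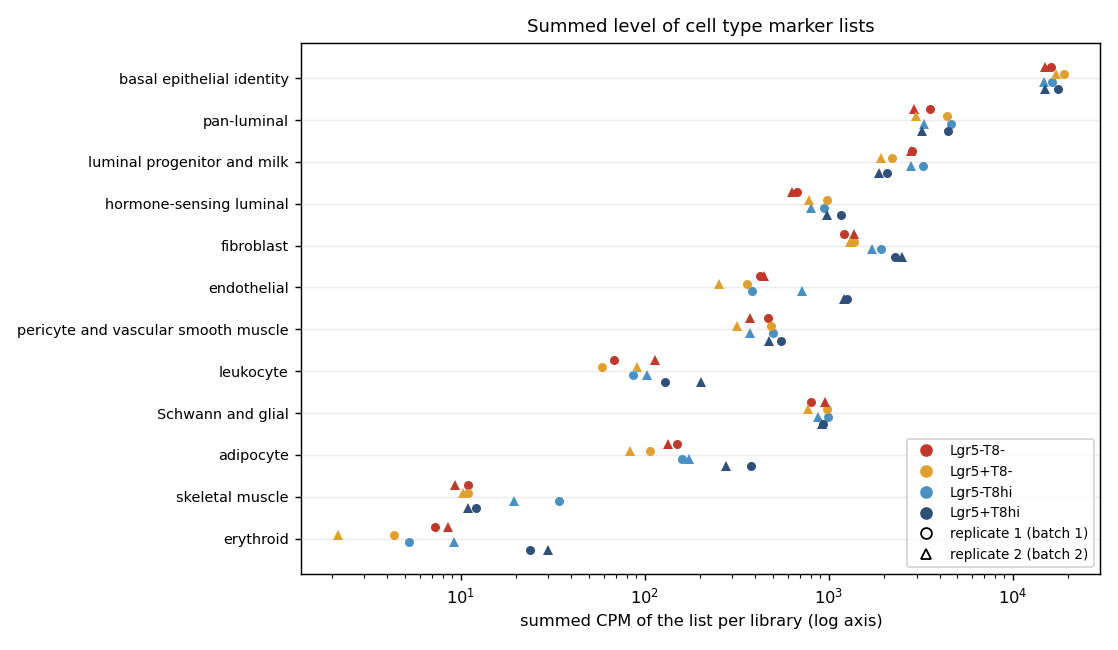
Summed CPM (log axis) of 12 lists of cell type markers in each library, circles for replicate 1 and triangles for replicate 2. The Lgr5-T8- libraries lie at 1208 to 1373 CPM for fibroblast and 426 to 446 for endothelial genes, and the Lgr5+T8hi libraries are the highest for fibroblast, endothelial, leukocyte, adipocyte and erythroid genes.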

How the data were processed

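RNA was measured in 8 libraries of sorted basal mammary cells. The deposited values are whole-number read counts per Entrez gene, made by the authors with CASAVA 1.8.2 and featureCounts against mm10, per the submitters' processing notes, which also name edgeR 3.10.2 and limma 3.24.14. The aligner and the strand setting are not given in the sources used here, so reads of overlapping and antisense genes cannot be told apart. Symbols and positions were matched by Entrez ID to RefSeq GRCm38.p6 for 25260 of 27164 identifiers, and the rest held 2.56% to 2.86% of counts.

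All 8 libraries were fitted at once with edgeR 4.0.16 in R 4.3.3 (TMM scaling, filterByExpr with a minimum count of 10, robust quasi-likelihood, terms for population and batch, 3 residual degrees of freedom). The filter kept 16526 genes and left out 10638. Tests were two-sided, and the standard error was the log2 fold change divided by the square root of F. For the difference from each population, the largest of 3 p-values with 1 sign was adjusted. The labels state that the replicate number is a batch, and libraries of 1 batch deviated together (correlation of deviations 0.392 to 0.525 in 6 pairs), so the block stands in the fit. Replicates differed beyond sampling noise (chi-square per degree of freedom 36.0 to 57.3). Floors of 3 counts cover counting error only. The fit was also run on simulated data, the outcome of which is not reported here.

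The members and the gene lists were chosen with earlier results of these data known. Genes were named by rule: the 14 highest and 14 lowest log2 fold changes among genes called in both tests and averaging 5 CPM or more, and the 4 smallest p-values of each list. Other list members named in the text were singled out after their values were seen. Alternatives were DESeq2 1.42.0, limma-voom (limma 3.58.1), RLE scaling, other count filters, no block, and leaving out each library. Some genes that the rule names are not reported here.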

Additional observations from a re-analysis of the deposited data

How the results depend on the processing

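Without the replicate block the calls fell from 1232 higher and 1159 lower to 300 and 187, all 487 of them among those of the blocked fit, and the genes set apart from each population fell to 15 higher and 10 lower. The pairwise totals without the block were 931, 147 and 208 against Lgr5+T8hi, Lgr5-T8hi and Lgr5+T8-, and 4 contractile genes were called. With Lgr5-T8- against the other 6 libraries as 2 groups, 289 genes were higher and 255 lower, and 257 and 174 passed a test against a 1.5-fold difference. With 1 library left out, the higher genes ranged from 731 to 1742 and the lower from 672 to 1399, and the set-apart genes from 119 to 459 higher and from 101 to 356 lower. The pairwise totals ranged from 1554 to 4051, from 489 to 1943 and from 750 to 2354, in the order above. A population left with 1 library is assumed to vary like the others. DESeq2 (1083 and 980), limma-voom (1240 and 1185), RLE scaling (1275 and 1094), no count filter (1260 and 1258) and a filter of 1 CPM (1148 and 1114) stayed within 1.5 times of the edgeR counts. Of 333 called genes among the 878 on the lists or named, 111 kept the call under every alternative run, 87 lost it only without the block and 135 under another, and none changed sign. With 2 libraries a population, 3 residual degrees of freedom limit the test.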

Other observations

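Epidermal genes were split in Lgr5-T8- cells. Of 23 epidermal and hair follicle genes tested, 5 were higher and 3 lower, with a median of -0.07 that changed sign with the library left out. Krt1, a keratin of differentiating epidermis, stood at 6.85 and 4.19 CPM in Lgr5-T8- and at 0.315 to 0.634 in the other 6 (3.55 ± 0.22, edgeR adjusted p = 8.98e-07), and its partner Krt10 at 11.9 and 10.0 CPM against 4.47 to 5.77 (1.03 ± 0.12). Krt16, a keratin of activated epidermis, was lower (-0.74 ± 0.09).

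Genes of tissue dissociation and immediate early response gave 0 higher and 5 lower of 35 by edgeR (7.45% and 7.01% over all genes). Counts were 0 and 9 at an unadjusted p under 0.05, and 0 and 7 by DESeq2 and by limma-voom. The number depended on the library: leaving out replicate 2 gave 18 lower for Lgr5-T8- and 10 for Lgr5+T8-, and leaving out Lgr5-T8- replicate 1 gave 1 higher. The median was -0.39 within batch 1 and 0.03 within batch 2. The chemokine gene Cxcl2 was lower than in each other population (-1.11 ± 0.09). Of 40 proliferation genes 0 were higher and 2 lower by edgeR, with 2 and 3 at an unadjusted p under 0.05 and 0 and 2 by DESeq2 and by limma-voom. Both edgeR shares were below the 7.45% higher and 7.01% lower of all genes tested. Leaving out replicate 2 gave 3 higher for Lgr5-T8- and 2 for Lgr5+T8-. There were 0 lower without Lgr5-T8- replicate 1 or any 1 of the 4 T8hi libraries, and 1 without Lgr5+T8- replicate 1.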
